A study of Mus musculus with 9 samples.

Results

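Basement membranes are thin sheets of matrix that line epithelia, vessels, nerves and muscle fibres. Their backbone is a network of type IV collagen, and epithelia are fastened to it by hemidesmosomes and anchoring fibrils that contain collagens of their own. The genes described here are 10 collagen genes of basement membranes, of epithelial anchoring and of the cell surface, chosen by name from the 27685 gene identifiers with a value above 0. They are the 6 type IV genes (Col4a1 to Col4a6), Col18a1 (a basement membrane collagen with heparan sulfate chains that is the source of endostatin), Col7a1 (the anchoring fibril collagen beneath the epidermis), Col17a1 (the transmembrane collagen of hemidesmosomes) and Col23a1 (a transmembrane collagen of the plasma membrane). All 10 had a row in the table, and 8 passed the filter on low values, a mean of at least 0.5 FPKM (mapped fragments of a gene scaled to transcript length and to the library's total) over all libraries. Col4a3 and Col4a4 did not pass.

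The products of Col4a1 and Col4a2 form the type IV trimer found in nearly every basement membrane, vessels included. The products of Col4a5 and Col4a6 form another network in some epithelia and around smooth muscle, and those of Col4a3, Col4a4 and Col4a5 form a network that is best known from the kidney glomerulus. Genes of the basement membrane are of interest in this tissue because the tissue lay directly under the skin whose ectoderm carried the activated allele.

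RNAseq was carried out on 3 groups of E14.5 mouse tissue of mixed strain, with 3 libraries per group. The MCAGF8 cranial vault carried Msx2-Cre and the Cre-activated CAG Fgf8b allele at the Gt(ROSA)26Sor locus, and in reporter mice this Cre was active in the head ectoderm and not in the mesenchyme that gives rise to bones and sutures. Control libraries came from vault and from cranial base cartilage, are labelled wildtype, and lacked Cre in the study's description, where crosses to homozygous carriers give every offspring the silent allele. The skin was peeled off the vault before collection, the brain was removed before the base was collected, and RNA of 3 tissue samples was combined in each library (9 samples in a group), so all errors given here are between pools. The paper describes the base cartilage as taken from control embryos once their vault tissue had been collected. Control vault and control base pools can therefore hold tissue of the same embryos. Which embryos went into which pool is not stated, so a pairing of these pools is unknown and was left out of the main fit. The depth behind each FPKM is also unknown.

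Some libraries stood apart. Col2a1, the main collagen of hyaline cartilage, measured 2292 FPKM in control base replicate 2 and 163 and 268 in replicates 1 and 3, below the 373 to 462 of the control vault. The summed FPKM of 12 epidermal markers was 51.0, 117 and 34.6 in the control vault replicates 1 to 3, 459, 421 and 1057 in the MCAGF8 vault, and 558, 119 and 761 in the control base. The summed FPKM of 12 endothelial markers ran from 515 to 601 in the control vault, from 618 to 787 in the MCAGF8 vault and from 458 to 531 in the control base. Other marker sums also moved with the groups. Those of bone (8 genes) were 1348 to 3282 FPKM in the control vault, 140.0 to 284 in the MCAGF8 vault and 487 to 1356 in the control base, and those of skeletal muscle (10 genes), whose fibres have a basement membrane, were 920 to 5815, 21.5 to 193 and 1755 to 11307. Sums for Schwann cells (6 genes) were 23.1 to 32.6, 11.2 to 21.8 and 56.5 to 157 FPKM in the same order, and those for neurons (7 genes) were 21.7 to 72.7, 37.6 to 74.8 and 161 to 581. Sums for pericytes and smooth muscle (8 genes), meninges (8 genes) and cartilage (8 genes) overlapped between the vaults. The part of these cell types in the collagen levels was not tested. In bulk tissue, fewer cells of a type and less RNA per cell cannot be told apart.

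Levels of single genes in single libraries ran from 0.0140 FPKM (Col4a3) to 271 FPKM (Col4a1), and since FPKM is a value per transcript length, genes can be ranked by it. Col4a1 was above Col4a2, Col4a2 above Col18a1, Col18a1 above Col23a1 and Col23a1 above Col4a5 in 9 of 9 libraries each. Below these the order was not fixed. Col4a5 was above Col17a1 in 7 of 9 libraries, with the exceptions in the control base, and above Col7a1 in 8 of 9, and Col17a1 was above Col7a1 in 4 of 9. Col4a6 was below Col4a5 in 9 of 9 libraries, and Col4a4 was above Col4a3 in 9 of 9 at values under 0.5 FPKM.

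**Figure D1:**
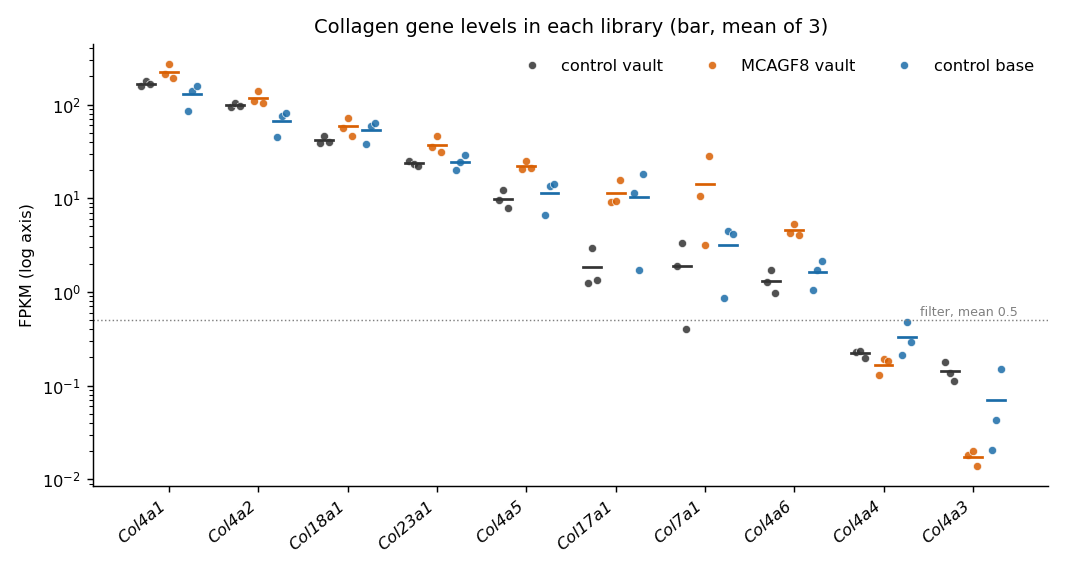
FPKM of the 10 genes on a log axis, with 1 point per library, a bar at the mean of 3 libraries, and groups in color (control vault, MCAGF8 vault, control base). The dotted line marks the filter at 0.5 FPKM, below which Col4a4 and Col4a3 lie, and the MCAGF8 points of Col4a5 and Col4a6 lie above all other points of those genes.

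Type IV genes lie head to head in pairs in the mouse genome, each pair transcribed away from a shared start region. By the GENCODE M21 annotation (GRCm38), Col4a1 (ENSMUSG00000031502) spans chr8:11198423-11312826 on the minus strand and Col4a2 (ENSMUSG00000031503) spans chr8:11312805-11449287 on the plus strand, so the gene bodies overlap by 22 bases at their starts. Col4a4 (ENSMUSG00000067158, chr1:82448423-82586849, minus) and Col4a3 (ENSMUSG00000079465, chr1:82586921-82722059, plus) are 71 bases apart. Col4a6 (ENSMUSG00000031273, chrX:141165403-141474076, minus) and Col4a5 (ENSMUSG00000031274, chrX:141475385-141689234, plus) are 1308 bases apart.

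The start regions are printed because the members of a pair can be compared with each other. Sequences are those of RefSeq on GRCm38.p6, in which 9 of the 10 genes had an entry. The first line is the overlap of Col4a1 and Col4a2 at chr8:11312805-11312826, plus strand. The second is the gap between Col4a4 and Col4a3 at chr1:82586850-82586920, plus strand. The next is the 250 bases upstream of Col4a6 at chrX:141474077-141474326, minus strand, and the last is the 216 bases upstream of Col4a5 at chrX:141475169-141475384, plus strand. Capitals mark matches, on either strand, to the GC box GGGCGG, the TATA motif TATAAA or the CCAAT box CCAAT.
Col4a1-Col4a2 overlap: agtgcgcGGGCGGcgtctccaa
Col4a3-Col4a4 gap: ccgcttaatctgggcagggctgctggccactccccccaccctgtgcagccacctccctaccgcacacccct
Col4a6 upstream: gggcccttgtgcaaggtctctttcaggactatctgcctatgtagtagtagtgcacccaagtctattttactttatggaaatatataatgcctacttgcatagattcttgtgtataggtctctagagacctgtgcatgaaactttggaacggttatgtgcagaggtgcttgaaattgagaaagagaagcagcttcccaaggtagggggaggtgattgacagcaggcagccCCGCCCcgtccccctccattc
Col4a5 upstream: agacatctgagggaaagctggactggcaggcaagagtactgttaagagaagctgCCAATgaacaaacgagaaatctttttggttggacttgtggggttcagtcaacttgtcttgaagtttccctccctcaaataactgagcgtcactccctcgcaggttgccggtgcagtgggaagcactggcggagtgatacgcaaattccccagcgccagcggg

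These start regions differed in base composition. In RefSeq promoter windows of 300 bases around the start, G and C made up 74.0% of the Col4a1 window and 73.7% of the Col4a2 window, against 48.3% for Col4a6, 52.7% for Col4a5 and a median of 52.7% over 32851 such windows. CpG dinucleotides numbered 37 and 33 in the windows of Col4a1 and Col4a2 and 3 and 11 in those of Col4a6 and Col4a5, against a median of 7. The TATA motif was in 0 of the windows of these 4 genes and in 13.6% of all windows, and the GC box was in each of the 4 and in 35.7% of all windows. The CCAAT box was in 37.4% of all windows and in those of Col4a1, Col4a2 and Col4a5. A match is a description of these letters, not of a bound site.

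Col4a6 rose in the MCAGF8 vault, and it was the only one of the 8 tested members to pass the threshold between the vaults, an unadjusted p under 0.05 with an adjusted p under 0.1. Its level was 1.26, 1.71 and 0.978 FPKM in control vault replicates 1 to 3 and 4.23, 5.36 and 4.03 in the MCAGF8 vault. The lowest MCAGF8 library was above the highest control library. The ratio of means was 3.45, and the log2 difference of (FPKM + 1) was 1.26 (standard error 0.24, adjusted p = 0.0925, limma). The 1 added before the log makes this difference smaller than that of the FPKM themselves, since the gene was low. The call was lost without MCAGF8 replicate 1, 2 or 3 (limma adjusted p 0.390, 0.338 and 0.211), any 1 of control vault replicates 1 to 3 (0.271, 0.123 and 0.324) or control base replicate 3 (0.103), while the log2 difference stayed between 1.15 and 1.38. It was also lost after rescaling to a sum of 1000000 (limma adjusted p 0.110), without the filter on low values (0.189) and without moderation of the variances (0.241). A fit with the replicate number as a block lost the call as well (limma adjusted p 0.279).

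Over all 18714 genes tested, 0.604% were called between the vaults and 0.23% were called and higher in the MCAGF8 vault. At an unadjusted p under 0.05 by limma, which 6.34% of all genes reached, there were 5 members, namely Col4a5, Col4a6, Col7a1, Col17a1 and Col23a1. All 8 members tested were higher in the MCAGF8 vault. Their median log2 difference was 0.86, against -0.0088 over all genes, of which 9115 were higher. Groups did not overlap for 7 of the 8, all higher in the MCAGF8 vault, a pattern that 9.9% of all genes showed, while Col4a3 and Col4a4, not tested, were lower without overlap, as were 9.35% of all genes tested. The members were chosen with these results known, so their counts are a description.

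Col4a5, the X-linked partner of Col4a6, was at 9.54, 12.2 and 7.87 FPKM in the control vault and at 20.3, 25.2 and 20.8 in the MCAGF8 vault. The groups did not overlap. The ratio of means was 2.24 and the log2 difference 1.10 (standard error 0.29, 95% interval 0.45 to 1.75), with an adjusted p of 0.254 by limma, and the gene was not called. With only the 6 vault libraries in the fit the adjusted p by limma was 0.0962, past the threshold, at the same difference. In the control base Col4a5 was at 6.60, 13.5 and 14.3 FPKM and Col4a6 at 1.04, 1.74 and 2.12, values that overlapped the control vault for both genes.

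The members of this pair did not move in equal proportion. The ratio of Col4a5 to Col4a6 in FPKM was 7.56, 7.15 and 8.05 in the control vault and 4.80, 4.70 and 5.17 in the MCAGF8 vault, so each MCAGF8 library held more Col4a6 for its Col4a5. In the control base the ratio was 6.35, 7.75 and 6.74. A ratio within a library does not depend on a scaling factor shared by all genes of that library, and these ratios were taken on FPKM as deposited. The MCAGF8 values overlapped neither control group, and the exact two-sided permutation test gave p = 0.1 for each comparison, the smallest that 3 against 3 libraries allow (adjusted p = 0.133 over 12 ratio tests, which were chosen after the values were seen).

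Both genes lie on the X chromosome, and the pools differed in Xist, the RNA of the inactive X, which measured 42.5 to 160.3 FPKM in the control vault, 57.7 to 425 in the MCAGF8 vault and 102 to 508 in the control base. Its part in the result was not tested. Set against the 12 summed endothelial markers, Col4a6 was at 0.235% ± 0.0553 of that sum in the control vault, 0.657% ± 0.0230 in the MCAGF8 vault and 0.333% ± 0.0974 in the control base (SD, n = 3 each). Col4a5 was at 1.77% ± 0.321, 3.21% ± 0.161 and 2.34% ± 0.824 (SD, n = 3 each). On this endothelial scale the MCAGF8 libraries lay above all control vault libraries for Col4a5 and Col4a6. Against the 12 summed epidermal markers the order was the opposite. Col4a6 was at 2.47%, 1.46% and 2.83% of that sum in control vault replicates 1 to 3, 0.920%, 1.27% and 0.381% in the MCAGF8 vault and 0.186%, 1.46% and 0.278% in the control base. Col4a5 was at 18.7%, 10.4% and 22.8% in the control vault, 4.42%, 5.99% and 1.97% in the MCAGF8 vault and 1.18%, 11.3% and 1.87% in the control base. On this scale every MCAGF8 library was below every control vault library for both genes, and the part of epidermal cells in their levels was not tested.

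Col4a1 and Col4a2, the chains of the common trimer, were the highest of the members and had the smallest log2 differences of the 8 tested members between the vaults. Col4a1 was at 158, 177 and 165 FPKM in the control vault, 211, 271 and 192 in the MCAGF8 vault and 85.1, 140.2 and 159 in the control base. Col4a2 was at 94.9, 103.7 and 96.2 FPKM in the control vault, 109, 140.4 and 105 in the MCAGF8 vault and 44.8, 75.0 and 81.4 in the control base. In the MCAGF8 vault every library was above every control library of either tissue for both genes. Control base replicate 1 was the lowest of the 9 libraries for both.

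Between the vaults neither was called. The log2 difference of Col4a1 was 0.41 (standard error 0.25, 95% interval -0.15 to 0.97, adjusted p = 0.968, limma), and that of Col4a2 was 0.25 (standard error 0.24, 95% interval -0.28 to 0.78, adjusted p = 0.969, limma). These intervals do not exclude 0, and they reach to a difference of 0.97 and 0.78. Against the 12 summed endothelial markers, which were themselves higher in every MCAGF8 library than in every control vault library, Col4a1 was at 29.9% ± 0.707 in the control vault and 32.4% ± 1.76 in the MCAGF8 vault, and Col4a2 at 17.6% ± 0.660 and 17.1% ± 0.705 (SD, n = 3 each). Of the 12 endothelial markers, 0 were called between the vaults by limma and 3 were at an unadjusted p under 0.05 (6.34% of all genes), all higher in the MCAGF8 vault.

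The ratio of Col4a1 to Col4a2 stayed between 1.67 and 1.96 over the 9 libraries. It was 1.67, 1.70 and 1.72 in the control vault, 1.93, 1.93 and 1.83 in the MCAGF8 vault and 1.90, 1.87 and 1.96 in the control base. The control vault was below the other groups without overlap, by 0.200 against the MCAGF8 vault and by 0.212 against the control base, with p = 0.1 each by the exact two-sided permutation test, the smallest it allows here. The MCAGF8 vault and the control base overlapped (p = 0.8, exact). Over the 9 libraries, Pearson's r of log2(FPKM + 1) was 0.98 for Col4a1 with Col4a2 and 0.97 for Col4a5 with Col4a6, as a description of libraries that share their group.

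**Figure D2:**
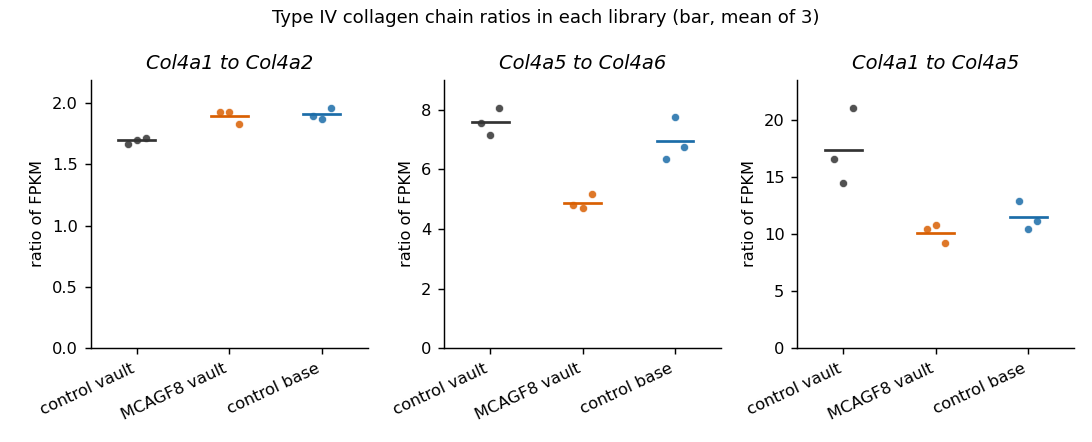
Ratios of FPKM between type IV collagen genes, with 1 point per library, a bar at the mean of 3 libraries and axes from 0. The Col4a1 to Col4a2 ratio is lowest in the control vault (mean 1.70), the Col4a5 to Col4a6 ratio is lowest in the MCAGF8 vault (mean 4.89), and the Col4a1 to Col4a5 ratio is highest in the control vault (mean 17.3).

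Taken as a sum, the 6 type IV genes reached 277 ± 16.0 FPKM in the control vault, 370 ± 63.7 in the MCAGF8 vault and 209 ± 62.9 in the control base (SD, n = 3 each). Col4a1 and Col4a2 made up 95.8% ± 0.739 of that sum in the control vault, 92.7% ± 0.435 in the MCAGF8 vault and 93.7% ± 0.567 in the control base (SD, n = 3 each). Col4a5 and Col4a6 made up 4.09%, 4.73% and 3.27% in the control vault replicates, 7.11%, 6.91% and 7.73% in the MCAGF8 vault and 5.54%, 6.58% and 6.36% in the control base. The share of this pair was lowest in the control vault and did not overlap between any of the groups. The ratio of Col4a1 to Col4a5, which carries the same shift, was 16.6, 14.4 and 21.0 in the control vault, 10.4, 10.7 and 9.21 in the MCAGF8 vault and 12.9, 10.4 and 11.2 in the control base.

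Col4a3 and Col4a4, the other chains of the glomerular network, stayed under 0.5 FPKM in all 9 libraries. Col4a3 was at 0.181, 0.135 and 0.113 FPKM in the control vault, 0.0183, 0.0202 and 0.0140 in the MCAGF8 vault and 0.0207, 0.0429 and 0.149 in the control base. Col4a4 was at 0.230, 0.233 and 0.198 FPKM in the control vault, 0.129, 0.190 and 0.183 in the MCAGF8 vault and 0.213, 0.477 and 0.289 in the control base. Both were lower in every MCAGF8 library than in every control library of either tissue, the opposite order to the other type IV genes, at levels where few reads lie behind a value. Neither entered the test, and in a fit without the filter on low values neither was called (limma adjusted p 0.457 for Col4a3 and 0.948 for Col4a4 between the vaults).

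The 2 collagens that fasten epithelia, Col17a1 and Col7a1, had the largest log2 differences among the members between the vaults, with the widest spread. Col17a1 (ENSMUSG00000025064, chr19:47646344-47692094, minus) was at 1.26, 2.92 and 1.33 FPKM in the control vault, 9.12, 9.35 and 15.8 in the MCAGF8 vault, and 11.3, 1.71 and 18.0 in the control base. The vaults did not overlap, while control base replicate 2 stood with the control vault and replicates 1 and 3 stood with the MCAGF8 vault. The ratio of means between the vaults was 6.22 and the log2 difference 2.14 (standard error 0.62, adjusted p = 0.335, limma), not called. Without control base replicate 2 the difference was the same, and the adjusted p was 0.0331 by limma, past the threshold. Leaving out that library also raised the number of all genes called between the vaults from 113 to 231. With only the 6 vault libraries in the fit the adjusted p of Col17a1 was 0.0666 by limma, also past the threshold.

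Col7a1 (ENSMUSG00000025650, chr9:108953586-108984875, plus) was at 1.91, 3.30 and 0.402 FPKM in the control vault, 10.6, 3.17 and 28.5 in the MCAGF8 vault, and 0.870, 4.44 and 4.19 in the control base. It varied 9.00-fold among the MCAGF8 libraries and 8.23-fold among the control vault libraries, and the vaults overlapped at MCAGF8 replicate 2. The ratio of means was 7.54 and the log2 difference 2.12 (standard error 0.72, 95% interval 0.51 to 3.72, adjusted p = 0.483, limma), not called.

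Both genes were read beside the epidermal markers, since skin is where they are best known. The 12 markers summed to a range of 34.6 to 117 FPKM in the control vault, 421 to 1057 in the MCAGF8 vault and 119 to 761 in the control base, and 0 of them were at 0 in all libraries. Between the vaults 11 of the 12 were higher in the MCAGF8 vault, 3 of them called (Krt5, Pkp1 and Grhl3). Of all 18714 genes tested, 9115 were higher there and 0.23% were called and higher. Krt5, a keratin of basal epidermal cells, was at 5.27, 29.2 and 1.63 FPKM in the control vault, 149, 139 and 252 in the MCAGF8 vault and 39.2, 17.8 and 117 in the control base. MCAGF8 replicate 3 was the highest of the 9 libraries for the marker sum and for Col7a1, and control base replicate 2 was low for the sum and for Col17a1. Other libraries went the other way. Control base replicate 2 had the lowest sum of its group and its highest Col7a1 (4.44 FPKM). The highest Col17a1 of all libraries was in control base replicate 3 (18.0 FPKM), not in MCAGF8 replicate 3 (15.8 FPKM).

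Relative to the summed epidermal markers, Col17a1 was not higher in the MCAGF8 vault. It was at 2.94% ± 0.791 of the sum in the control vault, 1.90% ± 0.369 in the MCAGF8 vault and 1.94% ± 0.462 in the control base (SD, n = 3 each), and every control vault library was above every MCAGF8 library on this scale. Col7a1 was at 2.57% ± 1.31, 1.92% ± 1.03 and 1.48% ± 1.97 of the sum (SD, n = 3 each), and the 3 groups overlapped. Single keratins weighed unevenly in the sum. Krt1 was at 50.5 ± 74.1 and Krt10 at 64.0 ± 96.8 FPKM in the MCAGF8 vault, and Krt15 at 195 ± 160 in the control base (SD, n = 3 each). How far these ratios follow the make-up of the sum was not tested. The share of skin in each dissection was not measured, and its part in the levels of Col17a1 and Col7a1 was not tested.

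**Figure D3:**
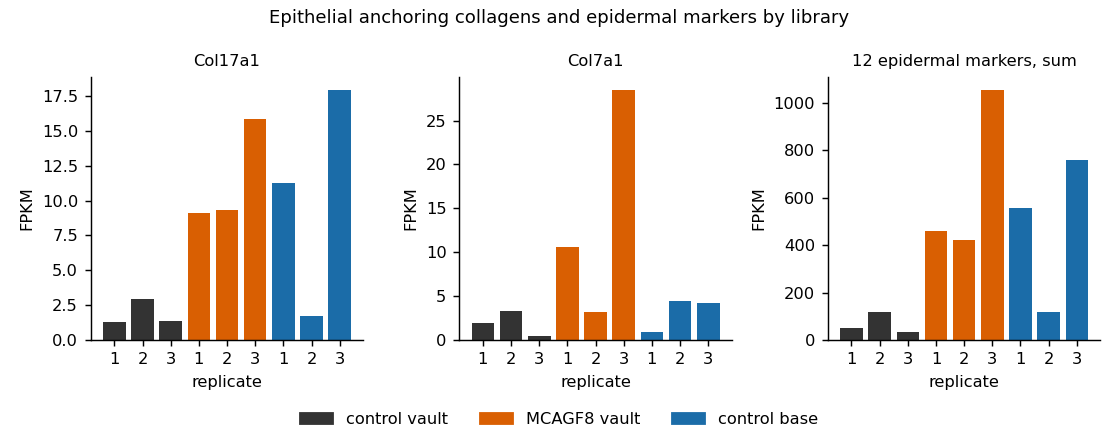
FPKM of Col17a1, of Col7a1 and of the sum of 12 epidermal markers, with 1 bar per library in the order of replicates 1 to 3 and groups in color. Control base replicate 2 is low for Col17a1 (1.71 FPKM) and for the marker sum (119 FPKM), and MCAGF8 replicate 3 is the highest bar for Col7a1 (28.5 FPKM) and for the marker sum (1057 FPKM). For Col7a1, control base replicate 2 (4.44 FPKM) is the highest bar of its group.

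Col18a1 and Col23a1 lay between 20.1 and 72.6 FPKM in every library. Col18a1 (ENSMUSG00000001435, chr10:77052178-77166548, minus) was at 38.7, 46.1 and 39.9 FPKM in the control vault, 56.0, 72.6 and 46.7 in the MCAGF8 vault and 38.4, 58.9 and 63.5 in the control base. The vaults did not overlap, but the nearest libraries were at 46.1 and 46.7 FPKM. The log2 difference was 0.46 (standard error 0.23, 95% interval -0.06 to 0.99, adjusted p = 0.888, limma), not called. In the control base Col18a1 overlapped both vaults.

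Col23a1 (ENSMUSG00000063564, chr11:51289920-51583918, plus) was at 25.2, 23.5 and 22.3 FPKM in the control vault, 34.9, 46.3 and 31.0 in the MCAGF8 vault and 20.1, 24.2 and 29.0 in the control base. Every MCAGF8 library was above every control library of either tissue. The log2 difference was 0.62 against the control vault (standard error 0.20, adjusted p = 0.450, limma) and 0.59 against the control base (standard error 0.20, adjusted p = 0.146, limma), and neither was called. The control tissues were alike in level, with a log2 difference of 0.032 between base and vault and a 95% interval of -0.42 to 0.49, and the sign of that small difference flipped under 2 of the rescalings.

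**Figure D4:**
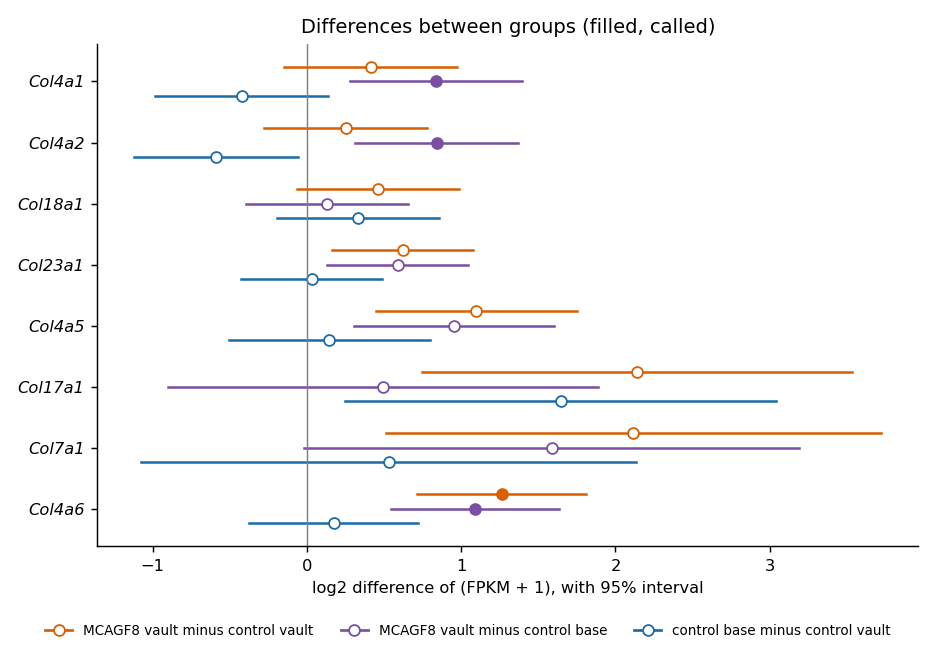
Log2 differences of (FPKM + 1) from limma for the 8 tested genes in 3 comparisons, with 95% intervals, filled points for called genes and open points for the others. Between the vaults only Col4a6 is filled (1.26), and against the control base Col4a1, Col4a2 and Col4a6 are filled (0.84, 0.84 and 1.09).

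The comparison of the MCAGF8 vault with the control base sets the altered vault against tissue dissected as normal skull base cartilage. The sum of 8 cartilage markers was 755, 7627 and 996 FPKM in control base replicates 1 to 3. It was 1354 to 1967 in the control vault and 1781 to 3510 in the MCAGF8 vault. Base replicates 1 and 3 were thus below every vault library for these markers. Of all genes tested, 8.39% were called in this comparison and 2.98% were called and higher in the MCAGF8 vault. That direction depends on scaling, since 35.5% of the called genes were higher there as deposited, 48.3% after rescaling to a sum of 1000000 and 58.7% after quantile normalization. The comparison shares its MCAGF8 libraries with the one between the vaults, so the 2 sets of values are not independent. There were 3 members called out of 8, all of them type IV genes and all higher in the MCAGF8 vault, and 5 were higher there without overlap, as were 8.91% of all genes tested. The type IV genes Col4a3 and Col4a4, not tested and under 0.5 FPKM in every library, had lower means there. The log2 difference was 0.84 for Col4a1 (standard error 0.25, adjusted p = 0.0955), 0.84 for Col4a2 (standard error 0.24, adjusted p = 0.0799) and 1.09 for Col4a6 (standard error 0.24, adjusted p = 0.0349), all by limma. Col4a5, at 0.95 (standard error 0.29), missed the threshold with an adjusted p of 0.102 by limma.

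These calls depended on single libraries. Without control base replicate 1, the lowest for both genes, the log2 difference was 0.57 for Col4a1 and 0.58 for Col4a2, and neither was called (limma adjusted p 0.164 and 0.115). Both calls were also lost without any 1 of the 3 MCAGF8 libraries or of the 3 control vault libraries, with limma adjusted p from 0.147 to 0.254 for Col4a1 and from 0.122 to 0.227 for Col4a2. Col4a6 lost its call without MCAGF8 replicate 1 or 2 (limma adjusted p 0.119 and 0.124). The endothelial markers were higher in the MCAGF8 vault than in the control base for 12 of 12 genes, 5 of them called. Of all 18714 genes tested, 8184 were higher there and 2.98% were called and higher. The part of endothelial cells in the type IV differences was not tested.

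Between the control tissues 0 of the 8 members were called by limma, against 3.06% of all genes. At an unadjusted p under 0.05, which 12.8% of all genes reached, there were 2, namely Col17a1 and Col4a2. Col4a2 was lower in every control base library than in every control vault library, at a log2 difference of -0.59 (standard error 0.24, 95% interval -1.12 to -0.06, adjusted p = 0.316, limma). It was the only member without overlap between the control tissues, and 6.69% of all genes tested were lower in the control base without overlap. Col17a1 was higher in the control base by 1.64 (standard error 0.62, adjusted p = 0.274, limma). Without control base replicate 2 that difference was 2.47 with an adjusted p of 0.00862 by limma, past the threshold.

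Other genes of the basement membrane were read from the same fit as a list of 25 laminin, nidogen, perlecan and related genes. In the MCAGF8 vault 21 of 25 exceeded the control vault and 4 were below it (median log2 difference 0.35, against -0.0088 over all genes), and 0 were called by limma, with 9 at an unadjusted p under 0.05 (6.34% of all genes), 8 of them higher. The groups did not overlap for 11 of the 25, 10 of them higher in the MCAGF8 vault, and over all genes 9.9% were higher and 9.35% lower without overlap. The genes with the highest differences were Lama5 and Lama3, chains of epithelial laminins, and Frem1, a protein of the epidermal basement membrane. Lama5 was at 3.10 ± 0.863 FPKM in the control vault and 10.4 ± 5.86 in the MCAGF8 vault (SD, n = 3 each), with a log2 difference of 1.37 and an adjusted p of 0.226 by limma. Lama3 had a difference of 1.03 and Frem1 of 0.97, and the vaults overlapped for Frem1. In the same list Lamb3 (0.32) and Fras1 (0.18) were less raised and Frem2 (-0.21) was lower, each with overlap. At the other end was Npnt, the integrin ligand nephronectin, at 54.6 ± 16.9 FPKM in the control vault and 18.8 ± 4.39 in the MCAGF8 vault (SD, n = 3 each), with a log2 difference of -1.46 and an adjusted p of 0.187 by limma.

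Against the control base 6 of the 25 partners were called, 5 of them higher, against 8.39% of all genes called and 2.98% called and higher. Those that were higher in the MCAGF8 vault were Lama1 (log2 difference 1.05), the laminin chain gene Lamc3 (1.47), the nidogen genes Nid1 (1.23) and Nid2 (1.06), whose products link laminin to type IV collagen, and Egflam (1.11), and the gene that was lower was Npnt (-1.27). Nid1 was at 199 ± 2.35 FPKM in the MCAGF8 vault, 157 ± 14.0 in the control vault and 87.4 ± 26.5 in the control base (SD, n = 3 each). Between the control tissues, 1 of the 25 partners was called (3.06% of all genes), Lama5, which was higher in the control base with a log2 difference of 2.09 (adjusted p = 0.0233, limma). Nid1, Nid2, Egflam, Lamc3 and Loxl2 were lower in every control base library than in every control vault library, as were 6.69% of all genes, and none of these 5 was called. Lama3 (log2 difference 0.76) and Lamb3 (1.34) were also higher in the control base, and neither was called.

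**Figure D5:**
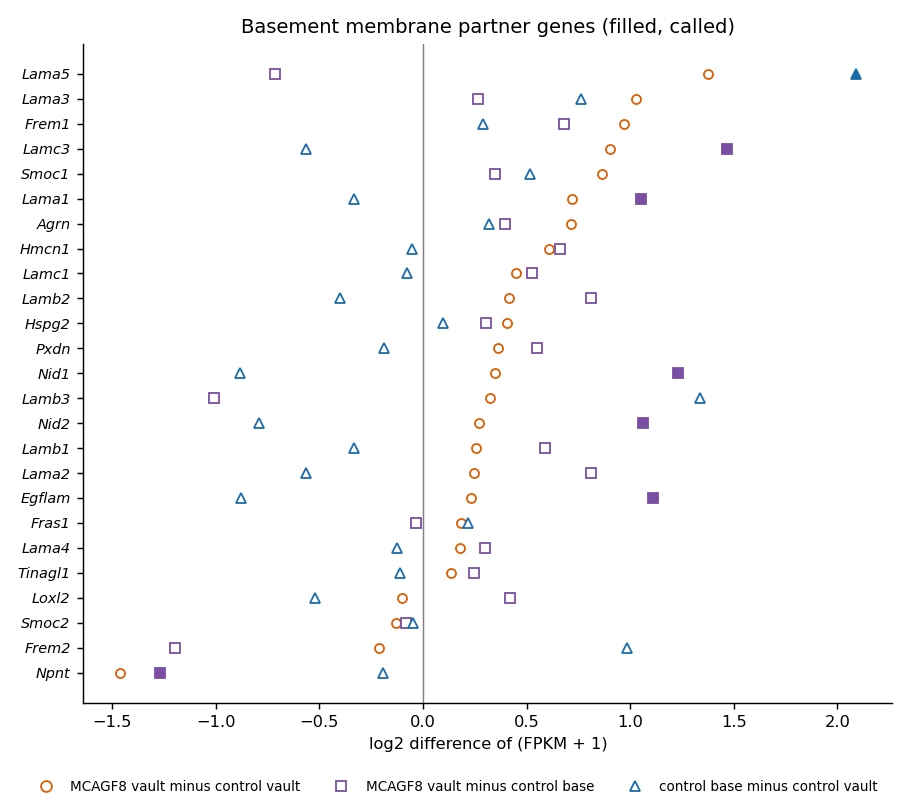
Log2 differences of (FPKM + 1) for 25 basement membrane partner genes in 3 comparisons, ordered by the difference between the vaults, with filled symbols for called genes. Between the vaults (circles) 21 genes lie right of 0 and none is filled, while 6 of the symbols for the MCAGF8 vault against the control base (squares) and 1 for the control base against the control vault (triangles) are filled.

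Of 12 receptors for collagen and laminin, 0 were called between the vaults by limma and 4 were at an unadjusted p under 0.05 (6.34% of all genes), all higher in the MCAGF8 vault. These were Itgb4 and Itga6, which pair as the integrin of hemidesmosomes, Itga3 and the laminin receptor Bcam. Itgb4 was at 1.54 ± 0.641 FPKM in the control vault, 3.98 ± 1.18 in the MCAGF8 vault and 5.27 ± 2.32 in the control base (SD, n = 3 each). Itga7, a laminin receptor of muscle, was called as lower in the MCAGF8 vault than in the control base (log2 difference -1.59), and summed skeletal muscle markers were 21.5 to 193 FPKM in the MCAGF8 vault and 1755 to 11307 in the control base. Bcam, at 63.4 ± 20.1 FPKM in the control base and 22.4 ± 10.6 in the control vault (SD, n = 3 each), was called as higher in the control base.

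A last list held 7 other transmembrane or endostatin-type collagens and proteins with a collagen domain, of which 6 were tested. Between the vaults 0 were called by limma, 0 were at an unadjusted p under 0.05, and the median log2 difference was -0.14. Col13a1, a transmembrane collagen like Col23a1, was at 7.86 ± 1.47 FPKM in the control vault and 5.47 ± 1.88 in the MCAGF8 vault, and Col15a1, the nearest relative of Col18a1, was at 34.1 ± 10.5 and 46.5 ± 5.31 (SD, n = 3 each). For both, the groups overlapped. Col25a1 was called as lower (log2 difference -1.19) and Colec12 as higher (0.86) in the MCAGF8 vault than in the control base, and Colec12 was called as lower in the control base than in the control vault (-0.80).

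For likeness of pattern, Pearson's r of log2(FPKM + 1) was taken over the 9 libraries between each member and all genes tested, as a description. The genes most like Col4a6 were Wnt3a and St8sia2 (r = 0.97 each), followed by Col4a5 (0.97). Those most like Col4a5 were Pear1 (0.98), Shc3 (0.97) and Osbpl7 (0.97), and Shc3 was also the gene most like Col23a1 (0.96). Those most like Col17a1 were Trim29 (0.99), Krt16 (0.98) and Sfn (0.98). Nynrin was most like Col4a1 (0.98) and Pcdhga3 most like Col4a2 (0.99), while the most like Col18a1 was Mex3b (0.95) and the most like Col7a1 was Zfp658 (0.95). These libraries share 3 groups, so a high r can come from the group means alone.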

How the data were processed

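The authors prepared stranded mRNA libraries from the pools, sequenced single-end on a HiSeq4000, and used gSNAP for mapping and Cufflinks for quantification. The table they deposited gives FPKM for each Ensembl identifier. Genome build, annotation and program versions were not given in the sources used here. Since FPKM carry no read depth, no counting interval was possible.

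The 63 rows repeating an identifier were summed, 9 genes holding a placeholder in 17 cells were left out, and FPKM were not rescaled. After adding 1 and taking log2, limma 3.58.1 in R 4.3.3 tested the values (eBayes with trend, 1 mean per group, all 9 libraries as independent, two-sided) on the 18714 genes whose FPKM averaged 0.5 or more. A gene was called at an adjusted p under 0.1 (Benjamini-Hochberg, over all genes) together with an unadjusted p under 0.05. The code was tested on simulated data. Tables and plots used Python 3.11.15, pandas 2.3.3, numpy 2.4.6 and matplotlib 3.10.9. Exact permutation tests compared within-library ratios.

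The members and lists were chosen with earlier results of these data known. The text names all 10 members and, per list and comparison, called genes and at most the 3 highest and 3 lowest differences, plus the 3 genes most like each member. Nid1, Nid2, Egflam, Lamc3, Loxl2, Lama3 and Lamb3 between the control tissues, Lamb3, Fras1, Itgb4, Itga6, Itga3 and Bcam between the vaults, and Col13a1 and Col15a1 were partly named after their values were seen. Marker lists of pericytes, muscle, neurons, meninges, Schwann cells, cartilage and bone were also summed. Of the partner list, 1 gene was left out and is not reported here. Labels share replicate numbers across groups. Alternatives are given in the closing section.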

Additional observations from a re-analysis of the deposited data

How the results depend on the processing

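The direction between the vaults was kept for all 8 tested members in all alternatives run. Rescaling to a sum of 1000000 moved the median of all genes between the vaults from -0.0088 to 0.13. Of 549 values of single members under an alternative, 481 kept direction and side of the threshold, 39 lost a call, 20 gained one and 9 reversed. The count of members called between the vaults (1) was 0 without the filter, with a mean FPKM of at least 5 (which drops Col4a6), with a sum of 1000000, with the replicate block, without moderation and at an adjusted p under 0.05, 3 with only both groups' libraries (limma: Col4a5, Col4a6, Col17a1) and 5 at an unadjusted p alone, and 0 to 2 with 1 library left out. The count against the control base (3) was 1 without the filter, with a mean of at least 5, with both groups' libraries only, with the replicate block, without moderation and at an adjusted p under 0.05, 5 after quantile normalization or at an unadjusted p alone, and 0 to 4 with 1 library left out. The count between the control tissues (0) was 2 at an unadjusted p alone, 1 with the length and GC trend removed, which was chosen after seeing the data (Col4a2, limma adjusted p 0.0380), and 0 to 1 with 1 library left out. Some alternatives also differ from the main fit in the number of genes or libraries, and the cause of these changes was not tested.

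Reversals were small. Against the control base, Col17a1 was -0.34 without control base replicate 2 (-0.34 to 1.07 with 1 library left out), and Col18a1 was -0.035 without MCAGF8 replicate 2 and -0.089 without control base replicate 1 (-0.089 to 0.28). Between the control tissues, Col4a5 was -0.035 without control base replicate 3 (-0.035 to 0.47), Col4a6 was -0.11 and Col23a1 -0.017 after quantile normalization, and Col23a1 was -0.0073 with a sum of 1000000, -0.094 without control base replicate 3 (-0.094 to 0.16) and -0.0077 without control vault replicate 3. Same-numbered libraries showed no common direction of deviation (r from -0.55 to 0.37). These r rest on deviations from means of 3 libraries, so they cannot show whether the replicate number marks a pairing or a batch. The block values above are given as an alternative. The unknown depth limits Col4a3 and Col4a4 most. Over all genes, and leaving aside calls by an unadjusted p alone, the number called between the vaults (113) ran from 0 without moderation to 192 with a pseudocount of 0.01 and from 11 to 231 with 1 library left out, that against the control base (1571) from 834 with a mean of at least 5 to 2446 with the trend removed and from 559 to 4580 with 1 library left out (4580 without control base replicate 2), and that between the control tissues (573) from 108 with both groups' libraries only to 1238 with the trend removed and from 132 to 1322 with 1 library left out. Under the replicate block these numbers were 19, 918 and 234. Of the calls between the control tissues, 60.6% were higher in the base as deposited and 37.7% after quantile normalization.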
